A study of Ictidomys tridecemlineatus with 5 samples.

Results

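Transcripts of 36 genes of the cell cycle and of DNA replication were compared between eye and retina of the thirteen-lined ground squirrel, Ictidomys tridecemlineatus. The members were taken by name: a gene was found where an assembled transcript had its best Swiss-Prot hit under that gene's entry name, in whatever species. Of the 36 names, 35 were found in eye and 24 in retina, so that 24 were in both tissues, 11 in eye alone, 0 in retina alone and 1, E2F2, in neither. Over all proteins the tissues shared 13949 of the 15938 Swiss-Prot names found in either. The members had 72 transcripts in eye and 48 in retina.

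The study sequenced 2 libraries of eye RNA and 3 of retina RNA from wild-type animals, for which the labels give neither age nor sex. Each library preparation pooled RNA of 4 animals, per the labels. Each tissue has a single deposited value for a transcript, whichever library it came from, so the differences lack a check against replicates and carry no test. The level of a gene is the RPKM of its highest transcript, that is, its reads scaled to the length of the transcript and to the reads of the tissue. A difference is taken on log2(RPKM + 1), eye minus retina, and so understates the contrast of low genes.

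A dividing cell first licenses its replication origins by loading the MCM helicase, then copies its DNA in S phase under cyclin E and cyclin A kinases, and enters mitosis under cyclin B with CDK1. E2F transcription factors switch on many of these genes once the retinoblastoma protein has been phosphorylated, and most of them are low in cells that have left the cycle. The neurons of the adult mammalian retina no longer divide, whereas the epithelia of the cornea, conjunctiva and lens keep dividing cells. In bulk RNA, fewer cells of a type and less RNA per cell cannot be told apart.

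Apart from E2F3 in retina and BUB1, the most abundant members were replication genes, while the mitotic members other than BUB1 were under 4 RPKM in both. PCNA, the sliding clamp of the replication fork, had 44.8 RPKM in eye and 48.1 in retina, at percentiles 89.1 and 90.1 of all names of its tissue. The median over all names was 8.01 RPKM in eye and 7.92 in retina. At the other end, CCNE2, BUB1B, CENPE and CENPF were under 1 RPKM in both tissues, and the 11 names found in eye alone lay between 0.327 and 2.46 RPKM there. The order of the 24 shared members was similar in the tissues (Spearman's rho 0.81 across genes, 0.92 without E2F3), which describes genes measured in the same 2 tables and not independent replicates. Over the 15 members that could be read on pairs of transcripts with the same alignment length, rho was 0.91, beside 0.87 over the 8867 proteins with such a pair.

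**Figure D1:**
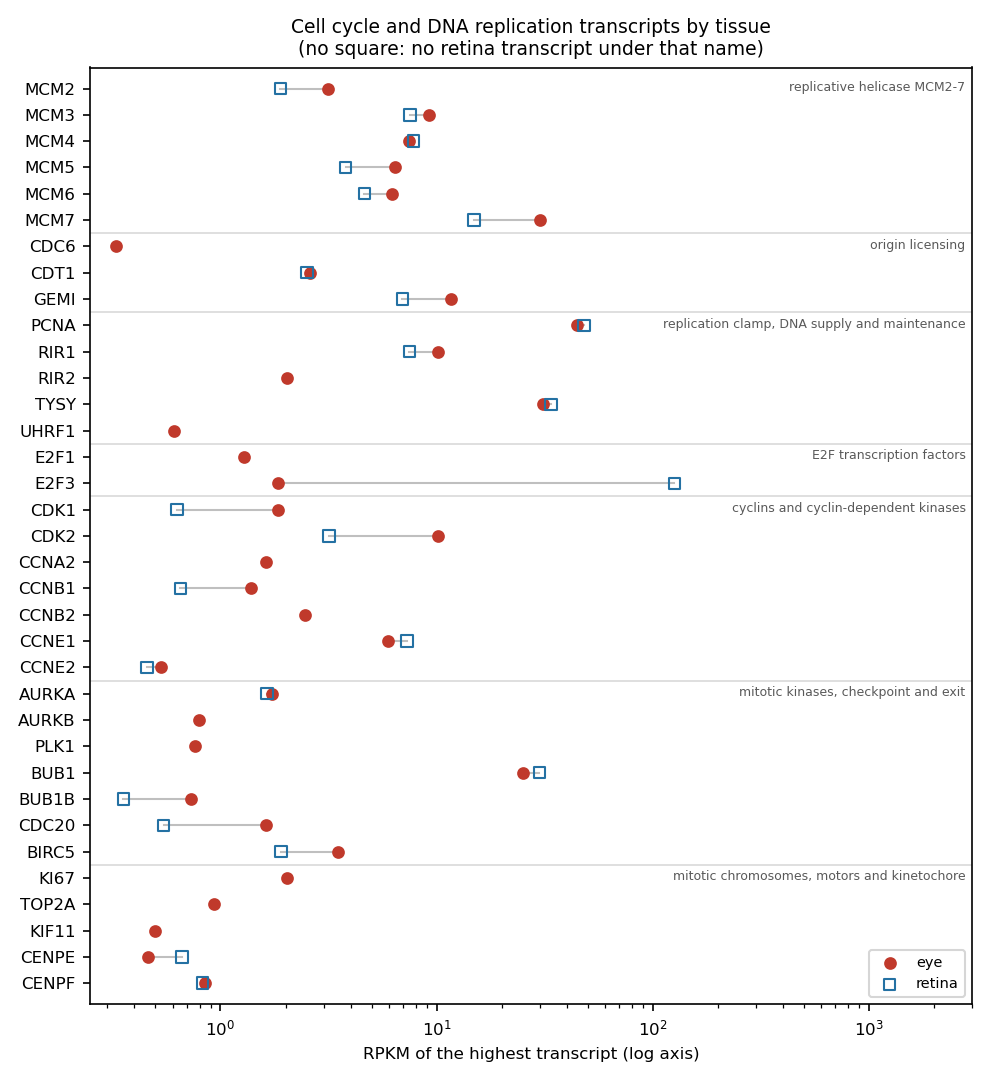
RPKM of the highest transcript of each member on a log axis, with a filled circle for eye and an open square for retina, 1 value per tissue, ordered by role. PCNA and TYSY in both tissues, MCM7 in eye and E2F3 in retina lie above 30 RPKM, and the 11 members with no retina square lie between 0.327 and 2.46 RPKM in eye.

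Between the tissues, more of the members compared were higher in eye than in retina, and few reached 2-fold. Of the 24 shared members, 20 were at 1 RPKM or more in either tissue, and 14 of these 20 were higher in eye, against 49.7% of the 13383 proteins compared in the same way. Their median difference was 0.37, against 0.00 over all proteins. CDK1, CCNB1 and CDC20 were under 1 RPKM in retina. They passed the minimum through eye alone and could only count as higher in eye. With no minimum, 17 of 24 were higher in eye, beside 7017 of 13949 proteins. At 2-fold, 1 of the 20 was higher in eye (CDK2) and 1 higher in retina (E2F3), where 11.8% and 3.6% of all proteins were. On plain RPKM ratios, with no pseudocount and no minimum level, 6 of 24 were at least 2-fold higher in eye (MCM7, CDK1, CDK2, CCNB1, BUB1B and CDC20) and 1 in retina, beside 15.3% and 4.66% of all proteins.

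The choice of transcript bears on these counts, because the tissues were assembled separately. With the transcript that matched Swiss-Prot best, 1 member was 2-fold higher in eye and 0 in retina, beside 11.8% and 3.12% of all proteins, and the median was again 0.37. In pairs of transcripts with the same Swiss-Prot entry and the same alignment length of at least 100 residues, 10 of 15 members were higher in eye, beside 47.8% of 8841 proteins. In those pairs 0 members reached 2-fold in either direction, beside 8.29% of all proteins for eye and 1.83% for retina, and the median was 0.26, against -0.02 over all proteins. Scaling the tissues to an equal total moved the median of all proteins to -0.30 and that of the members to 0.07, with 11 of 21 higher in eye.

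**Figure D2:**
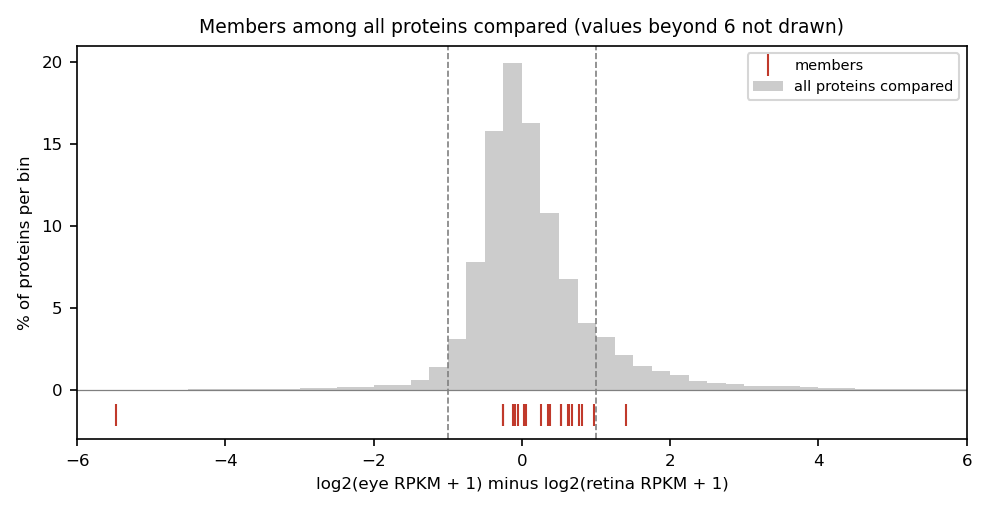
Percent of all proteins compared per bin of the difference in log2(RPKM + 1), eye minus retina, with a red tick below the axis for each of the 20 members compared and dashed lines at 2-fold. The member median is 0.37 against 0.00 for all proteins, 1 tick lies beyond 2-fold on the eye side and E2F3 lies alone at -5.48 on the retina side.

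The 6 MCM subunits form the hexameric helicase that unwinds DNA ahead of the fork, and all 6 were found in both tissues. MCM2, MCM3, MCM4, MCM5 and MCM6 were each compared on transcripts aligned over the same number of residues in both tissues. MCM2 had 3.16 RPKM in eye and 1.89 in retina, a ratio of 1.68 (95% counting interval 1.59 to 1.77). MCM5 had 6.39 and 3.79 RPKM in eye and retina, a ratio of 1.69 (1.61 to 1.77). MCM6 was at 6.2 RPKM in eye against 4.63 in retina, 1.34 times as high.

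These 3 subunits were higher in eye under all alternatives tried. MCM2 and MCM6 had 1 transcript in each tissue, so no choice among transcripts could alter their values. MCM3 had 9.24 RPKM in eye and 7.53 in retina, a log2 difference of 0.26 that turned to -0.03 under equal-total scaling. MCM4 differed least, with 7.48 RPKM in eye and 7.81 in retina (ratio 0.958, 0.927 to 0.99). Its 3 eye transcripts and 2 retina transcripts were alike in level within each tissue, so a sum over transcripts gave a difference of 0.50 in favour of eye. The subunit levels were unequal within each tissue, with MCM2 lowest and MCM7 highest in both.

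MCM7 had the highest level of the 6 subunits, 30.1 RPKM in eye and 14.9 in retina, a ratio of 2.02 (1.98 to 2.07). That ratio compares an eye transcript of 4419 bases, 713 residues of it aligned, with a retina transcript of 2289 bases and 699 aligned residues. A second eye transcript, of 613 aligned residues, had 11.3 RPKM, and the retina transcript of that alignment length had 12.7 RPKM. On that pair the ratio was 0.894 (0.868 to 0.922), so the direction for MCM7 turned with the transcript compared. The other 3 retina transcripts had 12.5, 10.4 and 9.61 RPKM, close to the pair and below the long eye transcript.

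Of the factors that load the helicase, CDT1 had 2.59 RPKM in eye and 2.51 in retina. The counting interval of their ratio, 0.95 to 1.12, spans 1, and the difference of 0.03 became -0.21 under equal-total scaling and 0.33 with the best-matching transcripts (2.59 RPKM in eye and 1.85 in retina). Geminin (GEMI), which holds CDT1 inactive after origins have fired, was higher in eye on every transcript. Its 4 eye transcripts had 11.6, 11.5, 10.1 and 9.98 RPKM, and its 2 retina transcripts had 6.94 and 6.02 RPKM, so the values of the tissues did not overlap. On the pair aligned over 246 residues the levels were 10.1 RPKM in eye and 6.02 in retina, a log2 difference of 0.66. CDC6, the ATPase that recruits the helicase to the origin, was found in eye alone, on a single fragment of 162 bases with 14 reads and 0.327 RPKM.

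Of the fork and nucleotide-supply members, PCNA and thymidylate synthase were among the most abundant of the set and were near even between the tissues. PCNA was slightly lower in eye on its highest transcripts (ratio 0.931, 0.914 to 0.948) and slightly higher on its best-matching ones, with 44.3 RPKM in eye and 39.9 in retina. Thymidylate synthase (TYSY) makes the thymidine nucleotide. It had 31.1 RPKM in eye and 33.8 in retina, a ratio of 0.92 (0.902 to 0.939) over 313 residues in both tissues. It was lower in eye under all alternatives tried, with log2 differences between -0.85 and -0.02. The large subunit of ribonucleotide reductase (RIR1, gene symbol RRM1) had 10.1 RPKM in eye and 7.49 in retina, 1.34 times as high in eye.

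The small subunit of the same enzyme was found in eye alone. RIR2, or RRM2, the S-phase subunit, had 2.04 RPKM there, from 1132 reads over 2096 bases, and no retina transcript had its name. RIR2B, the alternative small subunit that also serves resting cells, had 8.79 RPKM in eye and 9.9 in retina. UHRF1, which guides maintenance methylation to newly copied DNA, was in eye alone at 0.61 RPKM.

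Of the 3 E2F factors listed, all of the activator class, E2F1 was found in eye alone at 1.28 RPKM and E2F2 in neither tissue. E2F3 gave the largest difference among the members, 1.84 RPKM in eye against 126 in retina (log2 difference -5.48). The retina value comes from a transcript of 642 bases of which 111 residues aligned to E2F3, and a similar transcript of 615 bases with 111 aligned residues had 44.3 RPKM. The remaining retina transcript, of 1362 bases and 334 aligned residues, had 1.62 RPKM. The only eye transcript, of 1365 bases, aligned over 334 residues as well. On this pair the levels were 1.84 RPKM in eye and 1.62 in retina, a ratio of 1.13 (1.02 to 1.26). The high retina value thus belongs to short transcripts with no eye counterpart under that name, and not to the long transcript found in both tissues.

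**Figure D3:**
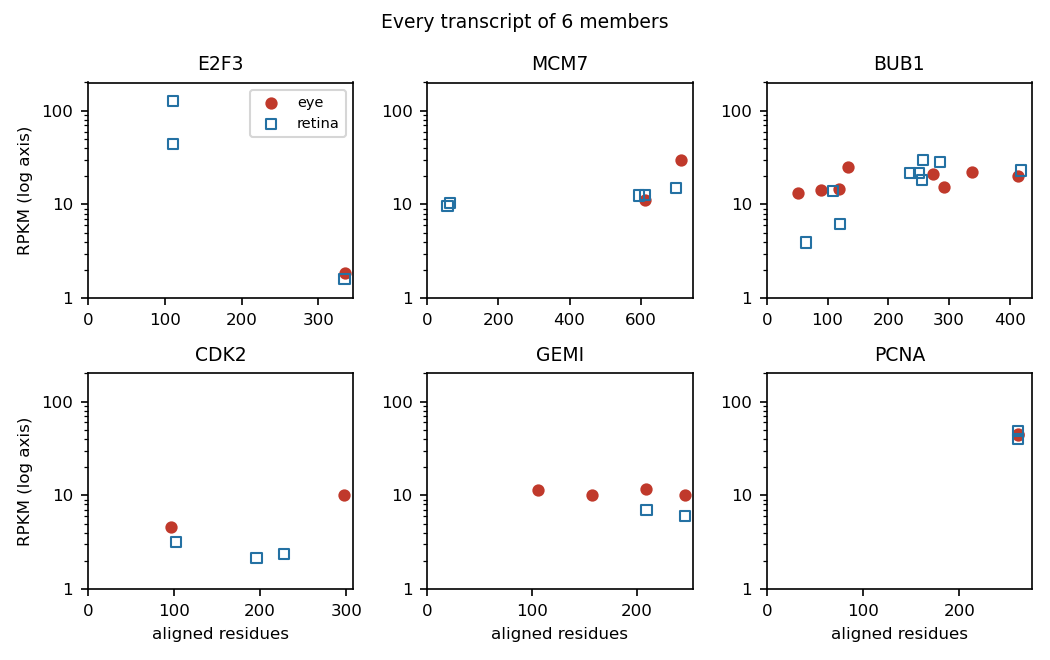
RPKM on a log axis against the number of residues aligned to Swiss-Prot, for each eye transcript (filled circles) and retina transcript (open squares) of 6 members. For E2F3 the 2 retina transcripts of 111 residues stand at 126 and 44.3 RPKM, while the eye and retina transcripts of 334 residues stand at 1.84 and 1.62 RPKM.

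Cyclins and cyclin-dependent kinases held 3 of the 6 plain ratios of 2-fold or more toward eye. CDK1, the kinase that drives mitosis, had 1.85 RPKM in eye and 0.629 in retina over 297 residues in both tissues, a ratio of 2.95 (2.55 to 3.4). CCNB1, its cyclin B1 partner, had 1.38 RPKM in eye and 0.652 in retina over 425 residues in both tissues, a ratio of 2.12 (1.89 to 2.38). The cyclins CCNB2 and CCNA2 were found in eye alone, CCNB2 at 2.46 RPKM with 941 reads and CCNA2 at 1.63 RPKM with 801 reads. With the pseudocount of 1 the difference of CDK1 was 0.81 and that of CCNB1 0.53, both short of 2-fold.

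CDK2, the partner of cyclins E and A in S phase, was the member furthest toward eye on the log2(RPKM + 1) scale, at 1.41. Its 2 eye transcripts had 10.1 RPKM (298 aligned residues) and 4.59 RPKM (97 residues). Its 3 retina transcripts had 3.18, 2.39 and 2.14 RPKM and aligned over 102, 228 and 196 residues. Each eye transcript was above each retina transcript, but no pair shared an alignment length, and each retina transcript covered a part of what the longer eye transcript covered. With the best-matching transcripts the difference was 1.72, from 10.1 RPKM in eye and 2.39 in retina.

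Cyclin E went the other way. CCNE1 had 5.94 RPKM in eye and 7.3 in retina over 397 residues in both tissues, a ratio of 0.815 (0.78 to 0.851). It was lower in eye under all alternatives tried, though with 1 transcript in each tissue the choice among transcripts could not alter it. CCNE2 was near the lower end of both tables, at 0.531 RPKM in eye on 23 reads and 0.458 in retina on 31 reads. Its ratio interval of 0.675 to 1.99 leaves the direction undetectable at this depth.

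Among the mitotic kinases, AURKA, which builds the spindle poles, had 1.73 RPKM in eye and 1.64 in retina. Its ratio interval of 0.964 to 1.16 spans 1, and its difference of 0.05 became -0.16 under equal-total scaling. AURKB, the kinase of the chromosomal passenger complex, and PLK1, which acts from mitotic entry to cytokinesis, were found in eye alone at 0.792 and 0.761 RPKM. BIRC5, or survivin, a partner of AURKB in that complex, had 3.48 RPKM in eye and 1.91 in retina, a ratio of 1.81 (1.63 to 2.02). CDC20, which activates the anaphase-promoting complex, had 1.63 RPKM in eye and 0.546 in retina, a ratio of 2.99 (2.57 to 3.47). Its eye transcript of 1681 bases held 725 reads and its retina transcript of 1142 bases held 222, and they differed in alignment length.

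The spindle checkpoint kinases BUB1 and BUB1B stood at opposite ends of the mitotic genes. BUB1 had 8 eye transcripts between 13.2 and 25 RPKM and 9 retina transcripts between 3.94 and 29.9 RPKM, so every eye transcript lay within the range of the retina transcripts. Each of these transcripts matched a piece of the protein, 52 to 413 residues in eye and 65 to 418 in retina, and no pair of 100 residues or more had the same alignment length. Its highest transcripts gave a ratio of 0.834 (0.807 to 0.862), which turned to a difference of 0.03 with the length-weighted mean. BUB1B had 0.73 RPKM in eye and 0.355 in retina, where it rested on 31 reads, and its ratio of 2.06 has an interval of 1.4 to 3.03.

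The genes of the mitotic chromosomes were all low. TOP2A, the topoisomerase that untangles sister chromatids, was found in eye alone on a transcript of 5556 bases with 1368 reads, at 0.932 RPKM. KI67, the coat protein of mitotic chromosomes whose gene is MKI67, was in eye alone on 11 fragments between 0.288 and 2.03 RPKM, the longest aligned over 351 residues at 0.866 RPKM. KIF11, the motor that pushes spindle poles apart, was in eye alone on 6 fragments, at most 0.497 RPKM. CENPE, a kinetochore motor, had 0.462 RPKM in eye on 31 reads and 0.665 in retina on 491 reads. Its eye fragment aligned over 43 residues at 83% similarity and its retina transcript over 667 residues at 40%, so the values rest on unlike alignments. CENPF, another kinetochore protein, had 0.846 RPKM in eye and 0.826 in retina, with an interval of 0.846 to 1.24 for the ratio. The proliferation markers KI67 and TOP2A were thus found in eye and not in retina under their names, at percentiles 17.8 and 8.2 of the eye names.

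**Figure D4:**
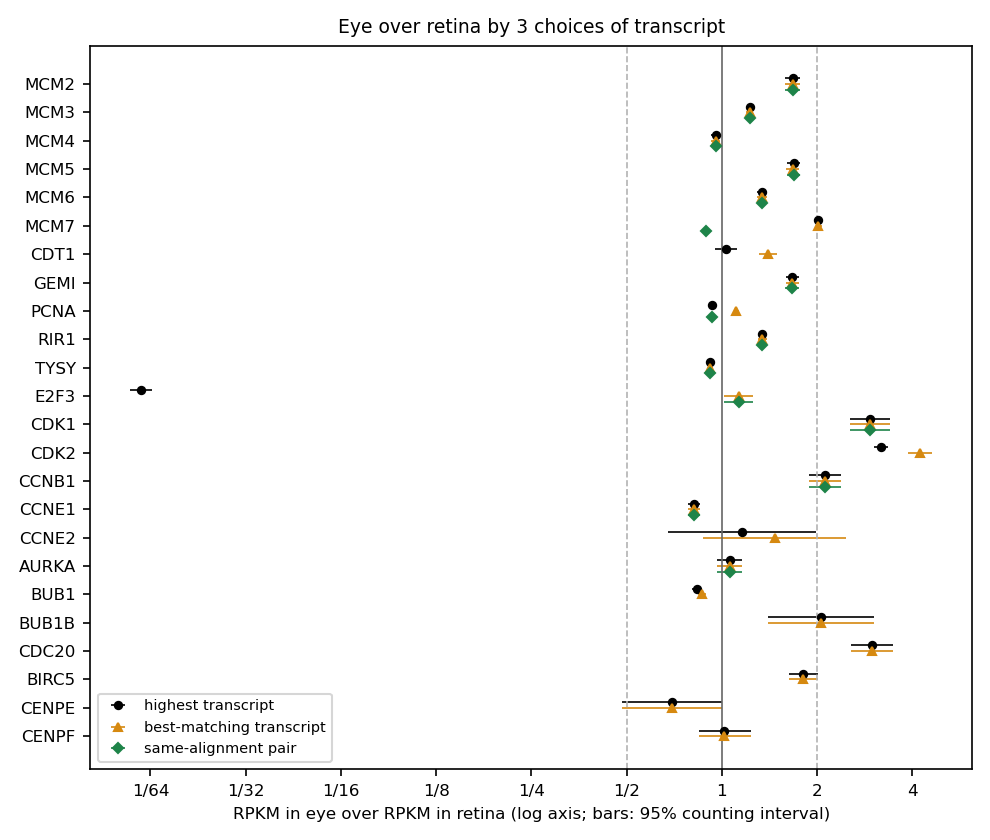
Eye RPKM over retina RPKM on a log axis for the 24 members in both tissues, by the highest transcript (circles), the best-matching transcript (triangles) and the pair with the same alignment length (diamonds), with bars for the 95% counting interval and dashed lines at 2-fold. CDK1, with 1 transcript in each tissue, can only stand at the same ratio, 2.95, by all 3 choices. E2F3 stands at 0.0146 by the highest transcript and at 1.13 by the other choices.

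The 11 members found in eye alone made up 31.4% of the 35 eye members, against 8.75% of the 15287 eye names that were absent from retina. In the other direction 0 members were found in retina alone, against 4.46% of the 14600 retina names. All 11 were under 5 RPKM in eye, a level chosen after the values were seen. Of the members under that level 11 of 23, or 47.8%, were absent from retina, against 18.8% of the 5638 eye names under it. The 11 lay between 0.327 and 2.46 RPKM, with a median of 0.932, so names up to 5 RPKM are not matched to them in level. By role they were 3 of 5 chromosome and motor genes, 2 of 7 mitotic kinase and checkpoint genes, 2 of 7 cyclins and kinases, 1 of 3 E2F factors, 2 of 5 fork and supply genes, 1 of 3 licensing genes and 0 of 6 MCM subunits.

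Retina held other genes at these levels. Its lowest name was at 0.151 RPKM, and 1742 names, 11.9% of those in retina, were under 1 RPKM, with a median of 123 reads. At the RPKM seen in eye, a retina transcript of the same length would have held 1843 reads for TOP2A, 1525 for RIR2, 1268 for CCNB2, 1079 for CCNA2 and 949 for E2F1, but only 19 for CDC6 and 59 for KIF11. The projection uses reads recovered from the values, which summed to 19.2 times the total in eye and 10.5 times in retina. These read numbers thus need not be counts of sequenced reads, nor alike in scale between the tissues. No retina fold is given for the 11, since absence from a separate assembly is not a count of 0. In the other direction, RFC5, a subunit of the complex that loads PCNA, was found in retina alone at 56.2 RPKM. Why the 11 names are absent from retina was not tested.

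Of the other genes of the pathway, 118 in 7 lists, 100 were in both tissues, 10 in eye alone, 3 in retina alone and 5 in neither. Of the 90 that could be compared, 56 were higher in eye, 10 were 2-fold higher in eye and 4 in retina, beside the 11.8% and 3.6% of all proteins given above. Their median was 0.08, which equal-total scaling turned to -0.20, with 29 of 91 higher in eye. Those in eye alone were 9.09% of the 110 found in eye, close to the 8.75% of all eye names. Among the other mitotic genes 6 of the 34 found in eye, or 17.6%, were in eye alone, at 0.567 to 7.96 RPKM. The share was 8.75% of all eye names and 18.8% of those under 5 RPKM, a level that some of the 34 exceed. The 6 include ANLN, the cytokinesis scaffold, at 1.62 RPKM. FOXM1, the transcription factor of the mitotic genes, was in eye alone at 0.34 RPKM.

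The partners of the members in replication were near even where both tissues had them. Of 31 replication initiation and fork genes compared, 19 were higher in eye, and their median of 0.06 turned to -0.16 under equal-total scaling. At 2-fold, 2 were higher in eye (1 with best-matching transcripts) and 1 in retina. That gene, DPOE1, the catalytic subunit of polymerase epsilon, had 6.78 RPKM in eye and 27.5 in retina, a log2 difference of -1.88 that was -0.94 with best-matching transcripts. PRI1, the catalytic primase subunit, had 22.7 RPKM in eye and 22.6 in retina. RFC2, a subunit of the complex that loads PCNA, had 27.1 RPKM in eye and 27.6 in retina. RFC4, another subunit, had 64.2 RPKM in eye and 24.3 in retina on the highest transcripts, a direction that turned with the best-matching ones (difference -2.21). RFC1 and RFC5, of the same complex, were found in retina alone, at 6.06 and 56.2 RPKM. PSF2, of the GINS complex of the active helicase, had 3.01 RPKM in eye and 1 in retina.

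The larger differences toward eye were in the controls of the G1 phase. All 4 G1 cyclins and kinases compared were higher in eye, 2 of them by 2-fold, and the list's median was 1.37, or 1.28 under equal-total scaling. CCND1, or cyclin D1, had 6.98 RPKM in eye and 0.707 in retina, and CCND2 had 3.65 RPKM in eye and 0.343 in retina. The retina transcripts of CCND1 and CCND2 had 974 and 606 bases, against 1489 and 2155 in eye. CDK4, their kinase, had 44.4 RPKM in eye and 27.1 in retina. Of this list only CDK4 could be read on a pair with the same alignment length, where its difference was 0.71. CCND3 was found in retina alone, at 9.87 RPKM.

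Inhibitors of the cyclin-dependent kinases were also higher in eye in 5 of 6 cases (3 of 6 under equal-total scaling), 3 of them by 2-fold. Their median was 0.85, or 0.56 under equal-total scaling. It was 0.05 over the 4 that could be read on pairs with the same alignment length, which did not include CDN1C and CDN2B. CDN1C, the inhibitor known as p57, had 27.4 RPKM in eye and 3.92 in retina. CDN2B, or p15, had 6.13 RPKM in eye and 0.613 in retina, and CDN1A, or p21, had 10.4 RPKM in eye and 2.73 in retina. CDN1B, or p27, and CDN2D, or p19, the more abundant inhibitors in retina, were near even, at 34.5 and 28.6 RPKM in eye against 32.4 and 32.8 in retina. The same tissue thus had the higher levels of both D cyclins compared and of these 3 inhibitors.

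The list of pocket proteins, repressive E2F factors and the DREAM complex, which silences cell cycle genes in resting cells, had 3 of 12 genes higher in eye and a median of -0.14 (0 of 12 and -0.46 under equal-total scaling). LIN37, a DREAM subunit, had 17.4 RPKM in eye and 24 in retina, and E2F6, a repressive E2F, had 16.5 RPKM in eye and 19.4 in retina. RBBP4, a histone-binding subunit, had 17.9 RPKM in eye and 50.3 in retina, a log2 difference of -1.44. The difference was -0.62 with the best-matching transcripts and -1.39 on the pair with the same alignment length. Of the remaining mitotic genes 16 of 23 were higher in eye, 2 reached 2-fold in each direction, and their median of 0.16 turned to -0.07 under equal-total scaling. PTTG1, or securin, had 15.2 RPKM in eye and 7.03 in retina, and SPC24, of the kinetochore, had 2.31 RPKM in eye and 0.579 in retina. KI20A and KIF4A, the 2 toward retina, had 0.805 and 1.72 RPKM in eye against 7.57 and 6.9 in retina. With best-matching transcripts they had 0.805 and 1.71 RPKM in eye against 0.417 and 1.94 in retina. By that choice the 2 toward retina were MELK and DLGP5, with differences of -1.81 and -1.04. MD2L1 and BUB3, of the spindle checkpoint, had 6.62 and 36.7 RPKM in eye against 6.92 and 34.6 in retina.

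Of 9 ubiquitin ligase genes of the cycle 6 were higher in eye, 1 of them by 2-fold, and their median of 0.07 turned to -0.23 under equal-total scaling. That gene was UBE2C, the ubiquitin-conjugating enzyme of mitotic exit, with 2.87 RPKM in eye and 0.603 in retina. The constitutive subunits CDC16 and CDC23 and the activator FZR1 had 13.2, 12.1 and 14.2 RPKM in eye against 15.7, 13.1 and 13.4 in retina. Of 5 nucleotide supply genes 3 were higher in eye. Their median was 0.37, or 0.12 under equal-total scaling and 0.16 over the 4 with a pair of the same alignment length. DUT, which clears dUTP, had 44.4 RPKM in eye and 30 in retina, and DYR, dihydrofolate reductase, had 9.69 RPKM in eye and 5.87 in retina.

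**Figure D5:**
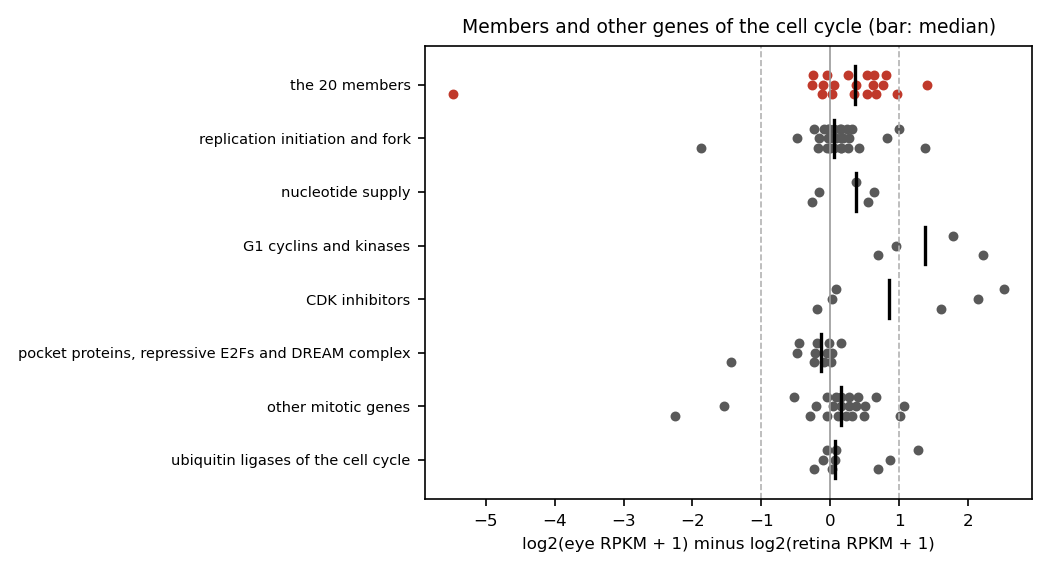
Difference in log2(RPKM + 1), eye minus retina, for the 20 members compared (red) and the genes of 7 other cell cycle lists (grey), with a black bar at each median and dashed lines at 2-fold. The medians are 0.37 for the members, 1.37 for G1 cyclins and kinases, 0.85 for CDK inhibitors and -0.14 for the pocket protein list.

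Markers of other cell types moved with the tissue as well. Lens markers summed to 6460 RPKM in eye and 25.3 in retina, and CRYAA, the lens alpha crystallin, had 2350 RPKM in eye and 0.53 in retina. All 5 markers of corneal and conjunctival epithelium were found in eye. There K1C12, a corneal keratin, had 2590 RPKM against 1.29 in retina, and P63, the transcription factor of basal epithelial cells, had 3.41 RPKM and was not found in retina. Pigment cell markers summed to 197 RPKM in eye and 8.22 in retina, and blood markers to 8840 RPKM in eye and 256 in retina. Leukocyte markers summed to 87.7 RPKM in eye and 17.6 in retina, and connective tissue markers to 595 RPKM in eye and 93 in retina. The 4 retinal neuron markers summed to 1510 RPKM in eye and 3240 in retina, most of it from RECO and SNP25, while OPSB, a cone opsin, had 59 RPKM in eye and 43.9 in retina. The Mueller glia markers RLBP1 and GLNA had 347 and 856 RPKM in eye against 323 and 801 in retina. With best-matching transcripts both were lower in eye, at 83.4 and 349 RPKM against 323 and 579 in retina. The part of any of these cell types in the member differences was not tested.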

How the data were processed

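RNA sequencing of 2 eye and 3 retina libraries was deposited by the authors as 1 expression value per assembled transcript and tissue, with a Swiss-Prot hit table that holds alignment length, percent similarity, E-value and alignment score, per the file headers. The deposited expression value was read as RPKM from the values themselves. The submitters' processing notes list Bowtie, without a version, and for the assembler and the search tool the sources used here give no name. Value times length was a whole multiple of 1 constant per table within 0.01 reads for 100% of transcripts, corresponding to totals of 264219334 reads in eye and 355988270 in retina. A kilobase at 1 RPKM thus holds 264 reads in eye and 356 in retina. The recovered reads summed to 19.2 times the total in eye and 10.5 times in retina. The cause was not tested, and the 95% intervals, which take each read as independent, hold counting error only.

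Genes were matched between tissues by the part of the Swiss-Prot entry name that precedes its species code. A gene's level is its highest transcript, with a pseudocount of 1 and a minimum of 1 RPKM in either tissue for differences. A 2-fold mark stands in for a call, since 1 value per tissue allows no test. Members, lists and marks were chosen with earlier results of these data known. All 36 members were named, as were, among the other pathway genes, up to 10 with the largest differences that kept direction and 2-fold with the best-matching transcript, which 9 met, and up to 3 of the most abundant of each list. Some of the pathway genes found in a single tissue, and DPOE1, KI20A, KIF4A, MELK and DLGP5, were named after their values were seen. A RefSeq gene table (assembly mIctTri1.hap1), used for names only, held the symbols of 35 of the 36 members. Paralogs and fragments can share or split reads. Promoter motifs were not analysed here. Python 3.11.15, numpy 2.4.6, pandas 2.3.3 and scipy 1.17.1 were used. The functions were checked on simulated data in which both tissues had the same transcripts, so the check does not cover separate assembly. Alternatives were other choices of transcript, hit, scaling, pseudocount and filter.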

Additional observations from a re-analysis of the deposited data

How the results depend on the processing

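No paired analysis was possible because the tables hold 1 value per tissue and not per library, and for the same reason no library could be left out. The number of members 2-fold higher in eye, 1 as reported, was 3 with sums over transcripts, 2 with median-ratio scaling, 4 with a pseudocount of 0.1, 0 with a pseudocount of 5, 6 with no pseudocount and no filter, and 0 in pairs with the same alignment length. The number 2-fold higher in retina, 1 as reported, was 0 with best-matching transcripts and 0 in those pairs, where E2F3 turned from -5.48 to 0.11 in both. The number higher in eye, 14 of 20, was 4 of 8 with a filter at 10 RPKM and 11 of 21 with equal-total scaling. Of all proteins, 15.3% were 2-fold higher in eye with no pseudocount and no filter and 8.29% in the pairs. No share of all proteins is given for sums, the scalings, the other pseudocounts or the filter at 10 RPKM. The counts under those settings thus cannot be set against all proteins. The median difference, 0.37, was 0.31 with sums, 0.40 with median-ratio scaling, 0.07 with equal-total scaling, 0.42 and 0.20 with pseudocounts of 0.1 and 5, 0.31 with no filter, 0.14 with the filter at 10 RPKM, 0.36 with no pseudocount and no filter, and 0.26 in the pairs. Over all proteins the median was -0.07 with sums, 0.03 with median-ratio scaling, -0.30 with equal-total scaling and -0.03 with the filter at 10 RPKM. Apart from the change of transcript, pseudocount or filter itself, the cause of the changes in the members was not tested. Of 263 member differences under the alternatives, 180 stayed within counting error, 81 moved beyond it and 2 turned sign at 2-fold. Of the 20 members, 12 kept their sign under all alternatives run (BIRC5, CCNB1, CCNE1, CDC20, CDK1, CDK2, GEMI, MCM2, MCM5, MCM6, RIR1 and TYSY). Of these, BIRC5, CCNB1, CCNE1, CDK1, MCM2, MCM6 and RIR1 had 1 transcript in each tissue. No choice among transcripts could alter their values, so part of the 180 and of the 12 was fixed in advance. Pseudocounts and filters on level could not turn the sign of any member. The count of 11 members found in eye alone was 10 with transcripts of at least 200 bases, and 11 with an E-value of at most 1e-20 and with mammalian entries only. The pairs, the plain ratios and the filters on the count of 11 were chosen after seeing the data. Depth limits the members under 1 RPKM most: the half-width of the log2 ratio interval had a median of 0.0788 and reached 0.778 for CCNE2.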
